A study of Drosophila melanogaster with 2 samples.

Results

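The ecdysone receptor and response genes are described here by the binding sites called for Aristaless (al), a homeodomain factor of the paired class that is needed for the distal parts of fly legs and antennae. The 10 genes, out of 13968 protein-coding genes on 7 chromosome arms, are EcR, usp, br, Eip74EF, Eip75B, Eip78C, Eip93F, ftz-f1, Hr38 and Hr39. They were chosen by name as the receptor pair and its classical response genes, and not by a rule on any value in the peak lists. The choice was made with earlier results of these data known. A peak was assigned to a gene when its summit lay inside the gene or within 2 kb of it.

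Chromatin immunoprecipitation with sequencing (ChIP-seq) was done on whole Drosophila melanogaster embryos aged 0 to 24 h from a transgenic strain that carries al fused to eGFP. The fusion was precipitated through its tag, with an antibody against GFP. There was 1 group, with biological replicates 1 and 2, and no untagged or other control group was analysed here. Whole embryos of all these ages were pooled, so binding in few cells and weak binding in many cells cannot be told apart, and no expression data went with the peak lists.

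Ecdysone is the steroid hormone that times molting and metamorphosis in insects, and a pulse of it also occurs during embryogenesis. Its active form binds a heterodimer of the nuclear receptors EcR and Usp, which switches on a small set of early genes, most of them transcription factors with several promoters. These act in turn on later genes, and nuclear receptors such as Ftz-f1 set the competence of a tissue for the next pulse.

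The thresholded list of the series, which holds the peaks that passed the authors' filter on reproducibility, had 3848 peaks, 3822 of them on the 7 arms. It held 18 peaks at 8 of the 10 genes. Eip75B had 6 peaks, ftz-f1 had 4, EcR and Hr38 had 2 each, and usp, br, Eip78C and Eip93F had 1 each, while Eip74EF and Hr39 had none. Of all protein-coding genes 33.3% were covered in the same way, and 10.6% had a summit inside the gene itself. Counted inside the gene, the 10 genes again gave 8, since 15 of the 18 summits lay inside a gene. The 10.6% is over genes of all lengths, while the median length of the 10 genes was 55678 bp. No share by gene length was taken for this inside count. Signal here means the enrichment value that the authors deposited for each peak, whose scaling was not stated, so it ranks peaks within a list and carries no unit. Its range at the 10 genes was 55.2 to 227.

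**Figure D1:**
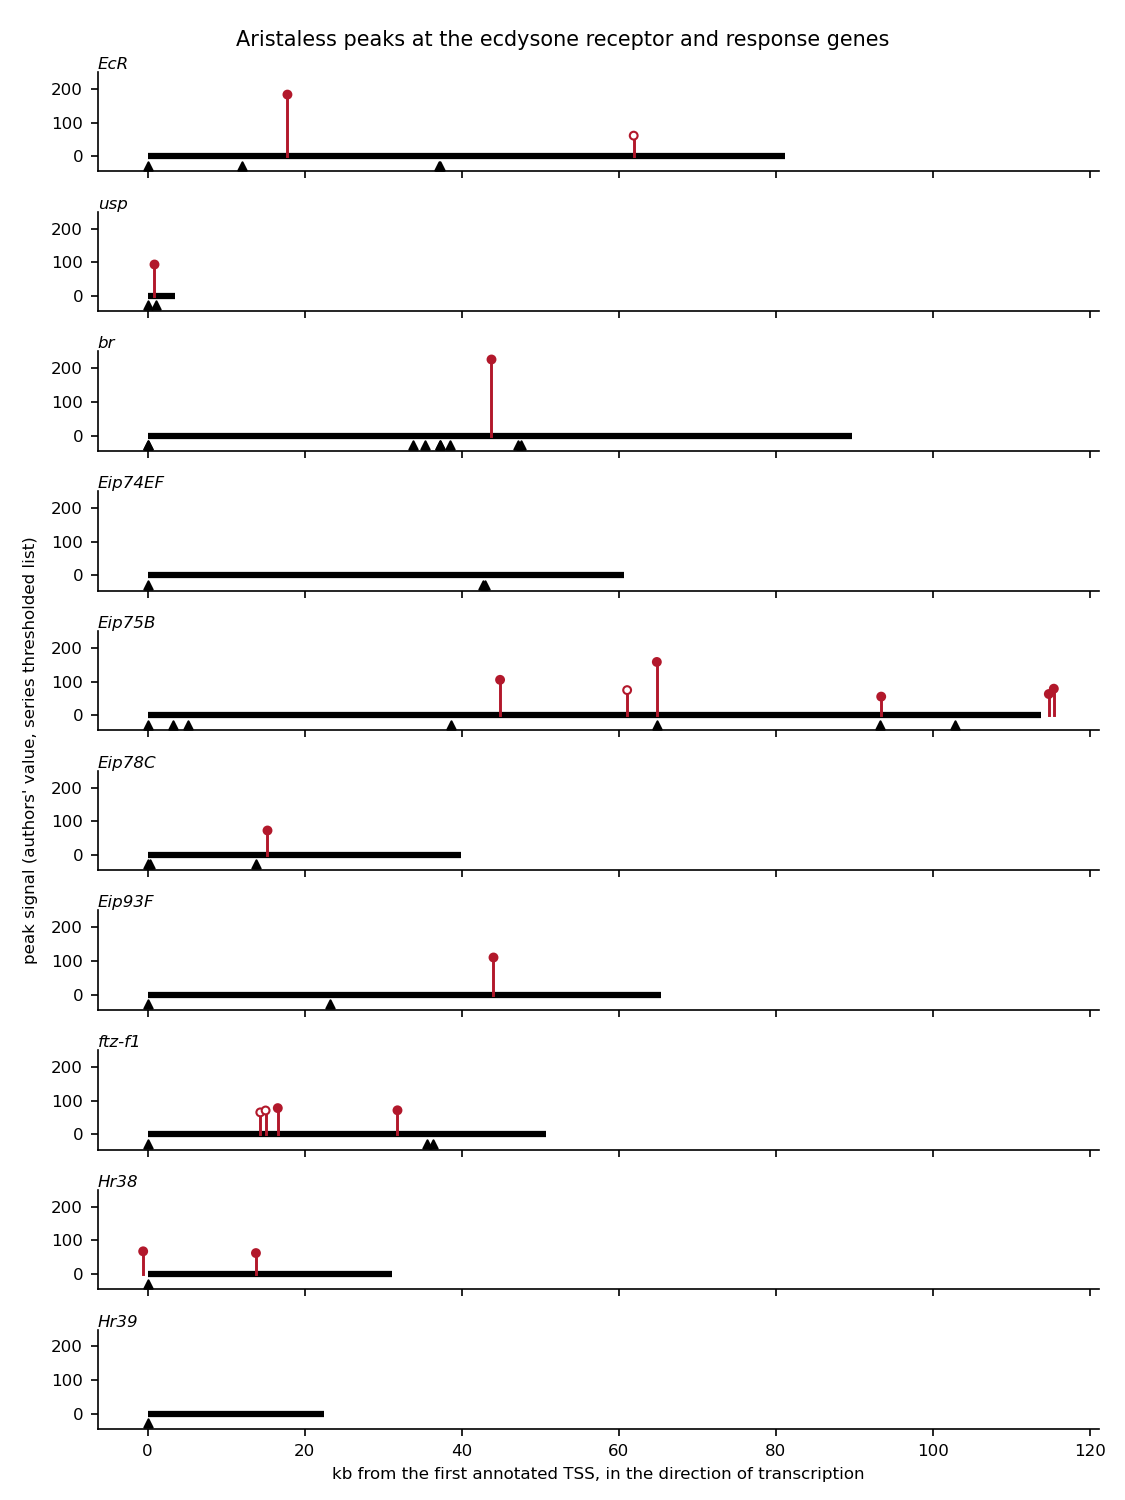
Each panel is 1 gene, drawn as a black bar against distance in kb from its first annotated transcription start site (TSS), with triangles for its annotated TSSs. Red lines stand for thresholded peaks with the authors' signal as height, filled where the peak is also in the conservative list; of the 18 peaks, 3 stand at a triangle, and Eip74EF and Hr39 have none.

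These genes are long, and long genes hold more peaks. Among genes of over 50 kb, 5 of the 6 members were covered (EcR, br, Eip75B, Eip93F and ftz-f1, but not Eip74EF), and 61.7% of all 313 genes of that length were. Among genes of 20 to 50 kb, 2 of the 3 members were covered (Eip78C and Hr38, but not Hr39), and 54.5% of all such genes were. usp, at 3.51 kb, was covered, as were 35.5% of all genes of 2 to 5 kb. In each class the covered share of members was above that of all genes. With so few members in a class, these shares cannot be told apart from those of their own length, and no test was made. In number of peaks, the 6 long members had 0.288 peaks per 10 kb and all genes of over 50 kb had 0.162. That density came mostly from Eip75B and ftz-f1, which had 6 and 4 of the 14 peaks at the 6 long members. Of all genes of over 50 kb, 15.3% had 4 or more peaks and 4.79% had 6 or more. The members of 20 to 50 kb had 0.285 peaks per 10 kb, close to the 0.315 of all such genes.

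**Figure D2:**
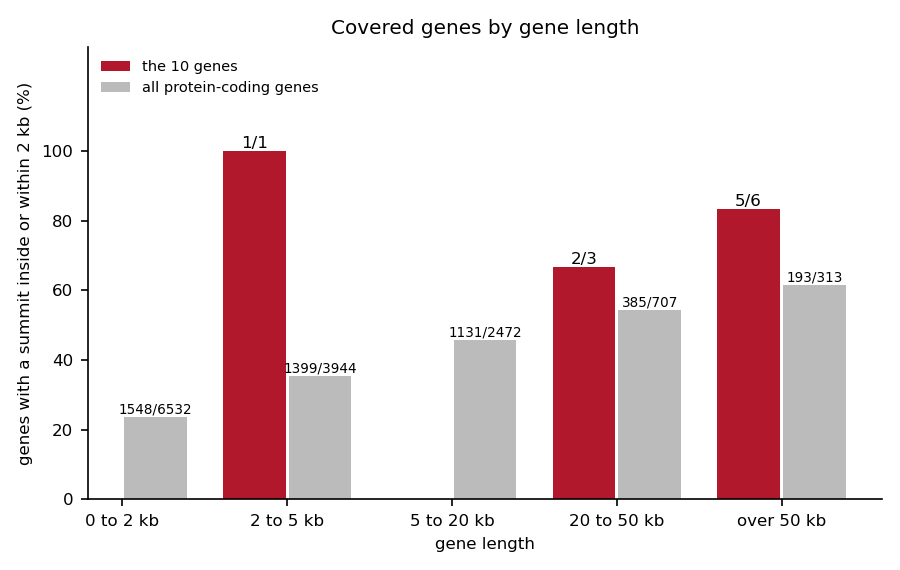
Bars give the percentage of genes with a thresholded summit inside or within 2 kb, by gene length, with the 10 genes in red and all protein-coding genes in grey, and the counts above each bar. Coverage over all genes goes up with length to 61.7% above 50 kb, and the red bars rest on 1, 3 and 6 genes.

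EcR encodes the ecdysone receptor itself, whose isoforms start from alternative promoters. The gene lies at chr2R:6087873-6169087 (dm6, minus strand) and has 6 annotated transcripts from 4 distinct TSSs. Its stronger peak, EcR peak 1, had a signal of 183 in the series list (rank 707 of 3848), with 102 in replicate 1 and 77.5 in replicate 2. It was in the thresholded list of both replicates, and its summit lay in an intron 5845 bp downstream of the TSS of EcR-RD and EcR-RE. EcR peak 2 had a signal of 61.2, with 19.2 in replicate 1 and 41.6 in replicate 2. It lay in an intron 24665 bp downstream of the TSS of EcR-RG, was absent from the conservative list and from the list of replicate 1, and its own q was 0.0619. None of the 4 TSSs of EcR had a thresholded peak within 500 bp. In the unthresholded ranked list of the series, neither the TSS of EcR-RA nor that of EcR-RD and EcR-RE had an entry within that distance, and the closely spaced TSSs of EcR-RB, EcR-RC and EcR-RG shared an entry of 15.9 with a q of 0.94. In replicate 1 the TSS of EcR-RD and EcR-RE had an entry of 30.3 with a q of 0.161. The next strongest entry in the gene, an intronic one of 50.3, had a q of 0.225 in the series list and of 0.0450 in replicate 1, where its signal was 36.8.

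usp encodes Ultraspiracle, the RXR-type partner of EcR. The gene lies at chrX:2038798-2042311 on the minus strand, with 2 transcripts from 2 TSSs. Its peak had a signal of 93.7 in the series list, with 57.8 in replicate 1 and 43.2 in replicate 2. The replicate 1 list held it and the replicate 2 list did not, although its q in replicate 2 was 0.0150. The summit was 142 bp upstream of the TSS of usp-RA and 857 bp downstream of that of usp-RB, whose intron it lies in. At the TSS of usp-RB itself the ranked list had an entry of 38.1 with a q of 0.746. The locus is shared: the summit also lies in an intron of Actn (alpha-actinin), and the TSS of CG4313 is 414 bp away, so the peak cannot be given to usp alone. Of the 18 windows of 201 bp around the summits, this was 1 of the 3 with the homeodomain core TAATTA, at bases 16 to 21 from the summit.

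br encodes the Broad family of BTB zinc finger factors, which direct the larval to pupal change. At chrX:1575132-1664869 on the plus strand, it has 16 transcripts from 9 TSSs. It held the strongest peak of the 10 genes, with a signal of 227 (rank 497), 142 in replicate 1 and 92.5 in replicate 2, and it was in the lists of both replicates. The summit was 6503 bp downstream of the TSS that 8 of the transcripts share and 3464 bp upstream of that of br-RS, in an intron that also belongs to Mur2B, a mucin-related gene whose own TSS is 689 bp away. The peak was 161 bp wide, while the other 17 had the width of 330 bp. No TSS of br had a thresholded peak within 500 bp, and ranked entries there reached 21.2 at most. A further peak of 163 lay 4497 bp past the gene, outside the window used, and 69 bp from the TSS of CG3740. The window of br peak 1 is shown as that of the strongest member peak, and it held none of the 9 motifs searched. It is chrX:1618744-1618944 (dm6, plus strand, summit in the middle), as read from the RefSeq release 6 genome.
br peak 1: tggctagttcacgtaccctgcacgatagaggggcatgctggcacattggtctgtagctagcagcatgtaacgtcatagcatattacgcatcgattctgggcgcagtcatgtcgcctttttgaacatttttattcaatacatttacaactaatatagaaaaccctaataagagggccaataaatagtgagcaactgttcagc

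Eip74EF, which encodes ETS-domain factors and is a classical early puff gene, had no peak. In the ranked list of the series its strongest entry had a signal of 42.9, at rank 5501 with a q of 0.522, in an intron 12916 bp downstream of the TSS of Eip74EF-RD. In replicate 1 the strongest entry of the gene was 27.6, and in replicate 2 it was 23.8, at another place in the gene. At its 3 TSSs the ranked signal was 21.9 (Eip74EF-RA, RC and RE) and 25.0 (Eip74EF-RB and RD, which share an entry). None of its 67 ranked entries had a q of 0.05 or less. The thresholded peak nearest to any of its TSSs was 32860 bp from the first of them, so the window of 2 kb did not decide its count.

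Eip75B encodes heme-binding nuclear receptors of the Rev-erb type, and its isoforms differ in their first exons. The gene is the longest of the 10, at chr3L:17950953-18064696 on the minus strand, with 7 transcripts each from a TSS of its own. It had peaks at 2 of these 7 TSSs. Eip75B peak 3 was 18 bp upstream of the TSS of Eip75B-RC, with a signal of 158 in the series list, 98.2 in replicate 1 and 56.9 in replicate 2, and both replicate lists held it. Eip75B peak 4 was 182 bp downstream of the TSS of Eip75B-RA, in the 5' UTR. It was the weakest of the 18, with 55.2 in the series list, 32.9 in replicate 1 and 22.1 in replicate 2, a q of 0.127, and a place in neither replicate list. The other 5 TSSs of Eip75B had ranked signals of up to 29.1, and that of Eip75B-RF had no entry. So the TSS signals of this gene were unequal, with Eip75B-RC far above the rest.

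Of the remaining peaks of Eip75B, peak 1 reached 105 in the series list, 75.1 in replicate 1 and 32.1 in replicate 2, and lay 6225 bp downstream of the TSS of Eip75B-RG. Peak 2, with 74.5, was 3800 bp upstream of the TSS of Eip75B-RC, and it differed most between replicates, at 68.2 in replicate 1 and 3.73 in replicate 2, where the overlapping entry had its summit 248 bp away. Peaks 5 and 6 lay 636 bp apart beyond the 3' end of the gene, 1049 and 1685 bp past it. Peak 5 had 62.9 (47.9 in replicate 1 and 20.7 in replicate 2) and was in neither replicate list. Peak 6 had 78.7 (59.1 in replicate 1 and 26.1 in replicate 2) and was in the list of replicate 1. All of these signals were higher in replicate 1. Every Eip75B peak but peak 2 was in the conservative list, and none of the peaks other than peaks 3 and 4 was within 500 bp of a TSS of the gene.

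The sequences at the TSS of Eip75B-RC and beyond the gene end are shown because 4 of the 7 member windows with GAGAG, the letters bound by GAGA factor, were at this gene (peaks 3, 4, 5 and 6). Capitals mark GAGAG, read on the other strand as CTCTC, and TAATTA. All are plus strand of dm6 from the RefSeq genome: chr3L:17999822-17999939 for peak 3, which leaves out 83 transcribed bases of the window, chr3L:17949804-17950004 for peak 5 and chr3L:17949168-17949368 for peak 6. The windows of peaks 5 and 6 are close neighbours with unlike composition, since G and C made up 25.9% of peak 5 and 59.7% of peak 6, the highest of the 18.
Eip75B peak 3: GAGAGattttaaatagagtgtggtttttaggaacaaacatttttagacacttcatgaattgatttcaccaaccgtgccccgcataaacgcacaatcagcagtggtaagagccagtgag
Eip75B peak 5: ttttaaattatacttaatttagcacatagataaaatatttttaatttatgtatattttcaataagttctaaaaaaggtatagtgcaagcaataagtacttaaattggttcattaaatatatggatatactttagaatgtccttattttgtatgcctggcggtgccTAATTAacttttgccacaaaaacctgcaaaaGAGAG
Eip75B peak 6: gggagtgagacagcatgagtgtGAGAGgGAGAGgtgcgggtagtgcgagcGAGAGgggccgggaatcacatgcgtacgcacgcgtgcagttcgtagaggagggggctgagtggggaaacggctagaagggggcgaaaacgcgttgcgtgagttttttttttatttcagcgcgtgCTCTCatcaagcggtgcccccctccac

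Eip78C, another nuclear receptor gene of the early puffs (chr3L:21226609-21266503, plus strand, 4 transcripts from 3 TSSs), had 1 intronic peak, 1405 bp downstream of the TSS of Eip78C-RB. Its signal was 73.4 in the series list, 44.4 in replicate 1 and 33.5 in replicate 2, and only the list of replicate 1 held it. Eip93F, whose product drives the removal of larval tissues and adult differentiation (chr3R:21949114-22014539, plus strand, 3 transcripts from 2 TSSs), also had 1 intronic peak, 20725 bp downstream of the TSS shared by Eip93F-RA and RC. Its signal was 111 in the series list, 69.7 in replicate 1 and 36.2 in replicate 2, and both replicate lists held it. Ranked entries at the TSSs of these genes did not exceed 28.5 for Eip78C and 20.5 for Eip93F.

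ftz-f1 encodes an orphan nuclear receptor that works with the segmentation protein Ftz in the early embryo and, later, as a competence factor between ecdysone pulses. The gene is at chr3L:18750607-18801309 on the minus strand, with 4 transcripts from 3 TSSs. Its 4 peaks were all intronic and of like signal, at 65.5, 71.1, 78.1 and 71.6 in the order of transcription. Peaks 1, 2 and 3 formed a row, 677 and 1553 bp apart, that began 14344 bp downstream of the TSS of ftz-f1-RB and also lay inside the non-coding gene lncRNA:CR45939. Peak 4 was 3745 bp upstream of the TSS of ftz-f1-RC and RD.

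In the replicates, ftz-f1 peak 3 had 39.7 in replicate 1 and 42.0 in replicate 2 and was in both lists. The other peaks of ftz-f1 were in the replicate 1 list only. Peak 2 had 59.3 in replicate 1 and no overlapping ranked entry at all in replicate 2, the single member peak of which this was true. Peak 1 had 50.8 in replicate 1 and 26.3 in replicate 2, and peak 4 had 43.3 in replicate 1 and 25.2 in replicate 2. Peaks 1 and 2 were absent from the conservative list. Entries at the TSSs of ftz-f1 were weak, with 21.3 at ftz-f1-RB and 8.56 for the other TSSs.

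The first of the ftz-f1 windows is shown for its homeodomain core, in capitals, which is at bases -18 to -13 from the summit and is the nearest to a summit among the member windows. It is the plus strand of chr3L:18786865-18787065 (dm6, RefSeq genome), 24.9% G and C.
ftz-f1 peak 1: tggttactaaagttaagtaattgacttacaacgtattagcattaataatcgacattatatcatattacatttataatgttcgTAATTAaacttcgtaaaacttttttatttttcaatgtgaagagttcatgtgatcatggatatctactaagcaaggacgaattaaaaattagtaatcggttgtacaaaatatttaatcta

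Hr38 encodes the NR4A-type receptor, which can pair with Usp in place of EcR. At chr2L:20683462-20714588 on the minus strand, it has 2 transcripts from a single TSS. Hr38 peak 1 was 574 bp upstream of this TSS, just outside the limit of 500 bp, with a signal of 67.8 in the series list, 42.1 in replicate 1 and 25.1 in replicate 2. The TSS itself had a ranked entry of 46.9 at 88 bp downstream with a q of 0.339, and in replicate 1 the entry there had 38.3 and a q of 0.0334. Hr38 peak 2 lay in an intron 13791 bp downstream, with 62.6 in the series list, 24.7 in replicate 1 and 32.4 in replicate 2, and it was in the list of replicate 2 only. Its window, chr2L:20700697-20700897 (plus strand, dm6, RefSeq genome), is shown because it alone among the 18 held TAAT and ATTA with 2 bases between them, the palindrome that paired-class homeodomains can bind as dimers. The capitals mark it at bases -95 to -86, near the edge of the window and not at the summit.
Hr38 peak 2: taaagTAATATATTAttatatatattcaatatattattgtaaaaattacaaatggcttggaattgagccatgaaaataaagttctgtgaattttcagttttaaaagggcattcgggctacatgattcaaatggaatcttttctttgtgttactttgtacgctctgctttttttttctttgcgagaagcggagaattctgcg

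Hr39 encodes a receptor closely related to Ftz-f1 (chr2L:21237250-21259675, plus strand, 4 transcripts from a single TSS) and had no peak. The nearest thresholded peak was 68744 bp from its TSS. Its strongest entry in the ranked list of the series had 33.0, a q of 0.922 and rank 11837, at 36 bp upstream of the TSS. In replicate 2 an entry of 19.5 lay at the same place, and in replicate 1 the strongest was 20.8, in an intron 10860 bp from the TSS. The second ranked list of the series had 0 entries at the gene and the first had 2, or 0.757 per 10 kb. Among all 1020 genes of 20 kb or more the median was 10.2 per 10 kb, and 2.35% of them were below Hr39. EcR, at 6.34 per 10 kb, was above 16.2% of these genes, and Eip74EF, the other gene with no peak, was near the median at 10.4. Few candidate sites of any strength were therefore listed at Hr39, while Eip74EF had many weak ones.

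Taking the alternative promoters of the 10 genes as a set, 3 of their 35 distinct TSSs (8.57%) had a thresholded summit within 500 bp (usp-RA, Eip75B-RC and Eip75B-RA) and 32 did not. Over all protein-coding genes, 16.9% of 19630 distinct TSSs had such a summit. By gene, 2 of the 10 members had a peak at an own TSS, against 18.7% of all genes and 30.0% of genes with 2 or more distinct TSSs. The 30.0% leaves out genes with a single TSS, while the 10 members include Hr38 and Hr39, which have 1 each. The share of TSSs was below that of all genes and the count of genes was near it, with no test of either, and several TSSs of br, EcR, Eip74EF and ftz-f1 lie so close together that they share an entry. In the ranked list 29 of the 35 TSSs had an entry of some strength within 500 bp, and 2 had one with a q of 0.05 or less, those of usp-RA and Eip75B-RC.

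**Figure D3:**
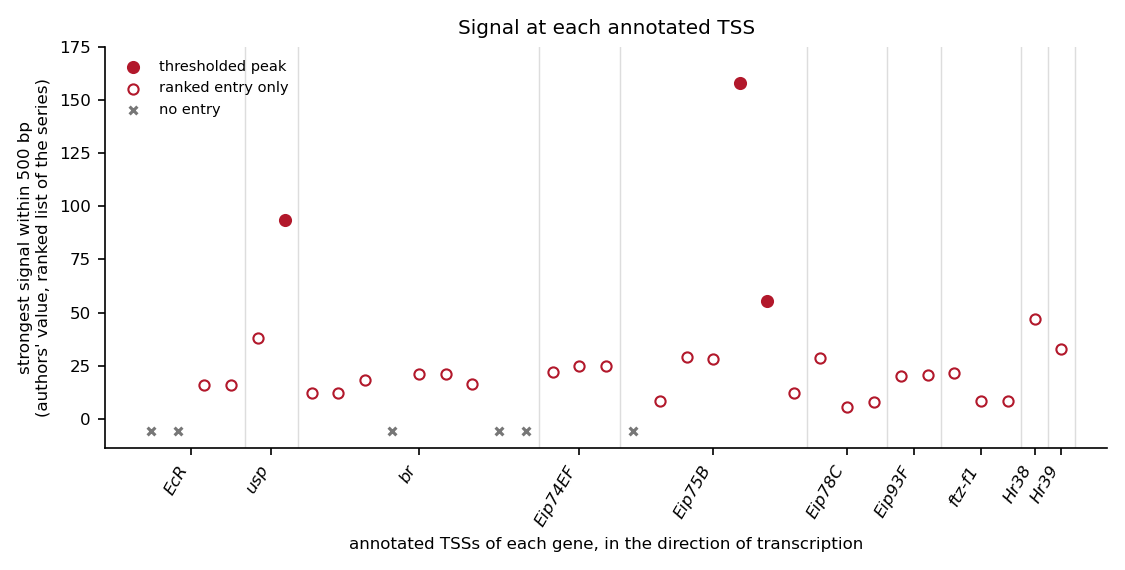
Each point is 1 of the 35 distinct TSSs, grouped by gene, with the strongest signal within 500 bp in the ranked list of the series on the vertical axis (authors' value, no unit); filled points have a thresholded peak and crosses have no entry. The TSS of Eip75B-RC (158) and that of usp-RA (93.7) stand above all others, and the highest open point is Hr38 at 46.9.

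The peaks at the 10 genes lay away from promoters more often than peaks in general. Of the 18, 14 were intronic, but these include usp peak 1 and Eip75B peak 3, each within 500 bp of an own TSS. No intronic share was taken over other peaks. The median distance from a member summit to the nearest TSS of any protein-coding gene was 6035 bp. It was 1607 bp for the 1261 peaks at other genes of 20 kb or more and 444 bp for all 3822 peaks. Within 500 bp of such a TSS were 3 member peaks (16.7%), 30.9% of the peaks at other long genes and 51.2% of all peaks. More than 5 kb away were 10 member peaks (55.6%), 27.8% of those at other long genes and 15.4% of all. Measured to the TSSs of the gene itself, 10 were over 5 kb and 8 over 10 kb away. No test was made of these differences, since the set is small and several peaks share a gene. The other long genes also take in those of 20 to 50 kb, while 14 of the 18 member peaks were at genes of over 50 kb. The peaks were thus not matched for gene length.

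**Figure D4:**
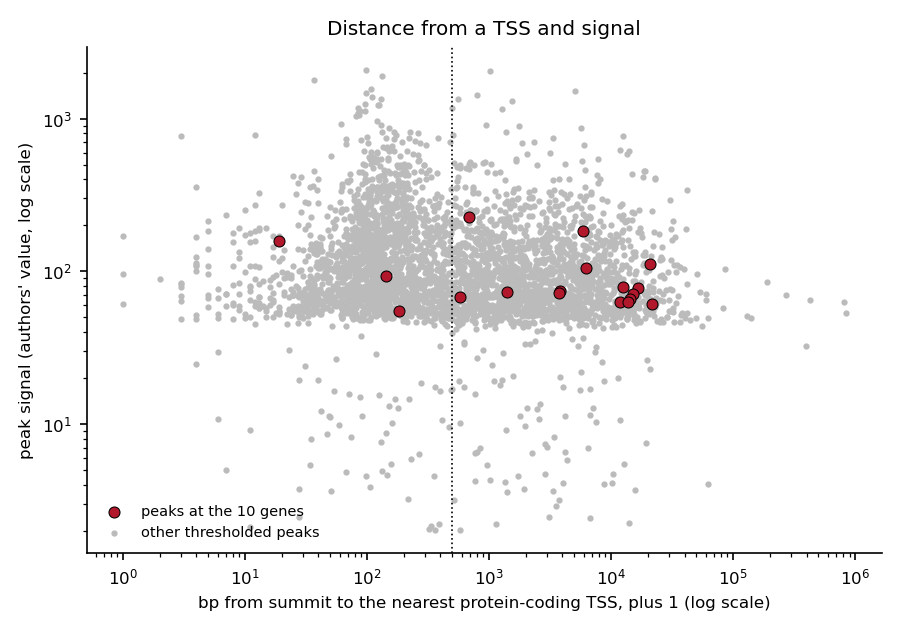
Signal of each thresholded peak (authors' value, log scale) against the distance in bp from its summit to the nearest protein-coding TSS (plus 1, log scale), with the 18 peaks at the 10 genes in red and the other peaks in grey; the dotted line is at 500 bp. Of the red points 3 lie left of the line, and all lie between 55.2 and 227 in signal.

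In median signal the member peaks were below the whole list, and the difference was not tested. Their median signal was 74.0, against 85.0 for peaks at other long genes and 90.2 for all peaks. Of the 18, 4 were below the lower quartile of all peaks (63.0), 6 were above the median, and 3 were above the upper quartile (151), namely br peak 1, EcR peak 1 and Eip75B peak 3. A q above 0.05 of their own was found for 3 member peaks (16.7%) and for 24.6% of all peaks. The conservative list held 14 of the 18 (77.8%) and 82.2% of all. By that list all 8 genes stayed covered, as were 31.4% of all genes.

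Between the replicates, 14 of the 18 peaks (77.8%) were in the list of replicate 1, against 73.0% of all 3822 peaks. The list of replicate 2 held 7 (38.9%), against 53.5% of all. Found in the replicate 1 list only were 9 of the 18, against 25.3% of all. Found in the replicate 2 list only were 2 (11.1%), against 5.86% of all. No test was made of these shares. Both lists held 5 peaks (27.8%), against 47.7% of all 3822 peaks, and neither list held 2 (11.1%), against 21.2%. The 5 were EcR peak 1, br peak 1, Eip75B peak 3, Eip93F peak 1 and ftz-f1 peak 3. By the list of replicate 1, 8 of the 10 genes were covered, as were 28.1% of all genes, and by that of replicate 2, 6 of the 10 were, as were 22.2% of all genes. usp and Eip78C were the genes without a peak in the replicate 2 list that had one in the series list. Overlapping entries in the ranked lists of both replicates were found for 17 peaks, and replicate 1 was higher at 14 of them (82.4%), by a median ratio of 1.68. Over 3711 peaks of the whole list replicate 1 was higher at 87.4%, by a median ratio of 1.51, so the member peaks were near the whole list in this. The peaks higher in replicate 2 were EcR peak 2, ftz-f1 peak 3 and Hr38 peak 2. No peak of a replicate list at these genes fell outside the peaks of the series list.

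**Figure D5:**
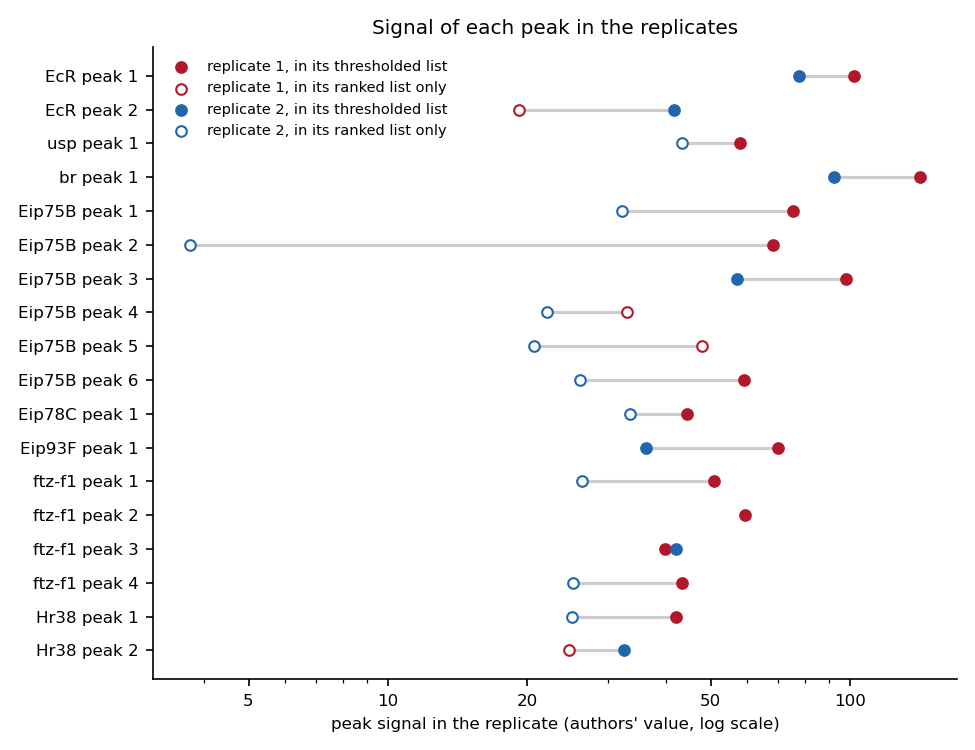
For each of the 18 peaks, the signal of the overlapping entry in the ranked list of replicate 1 (red) and of replicate 2 (blue), on a log scale, filled where the peak is in that replicate's thresholded list. Red points are to the right for 14 peaks, the widest gap is at Eip75B peak 2 (68.2 in replicate 1 and 3.73 in replicate 2), and ftz-f1 peak 2 has no blue point.

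Motifs were searched on both strands in the 201 bp around each summit. The homeodomain core TAATTA was in 3 member windows (usp peak 1, Eip75B peak 5 and ftz-f1 peak 1), or 16.7%, against 17.7% of all 3822 windows. TAAT and ATTA with 2 bases between were in 1 (5.56%, against 2.90%), and with 3 bases between in 0, against 2.98%. With 3, 1 and 0 windows, these shares are too coarse to set apart from those of all windows, and no test was made. GAGAG was in 7 member windows (38.9%), against 20.7% of all and 21.9% of the 1864 windows over 500 bp from a TSS. Those windows were at Eip75B (4), ftz-f1 (2) and Hr38 (1), so they come from 3 genes. The promoter motifs TATCGATA (DRE) and GGTCACACT (Motif 1) were in 0 member windows, against 4.37% and 1.41% of all. Each was in 0.322% of the 1864 windows over 500 bp from a TSS, and only 3 of the 18 member summits lay within that distance. So 0 member windows does not set them apart from other windows away from a TSS.

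The letters that nuclear receptors bind were looked for too, since several of these genes encode such receptors and are known targets of them. The core hexamer AGGTCA was in 0 member windows and in 4.16% of all. The longer TCAAGGTCA bound by Ftz-f1, which contains that hexamer, was in 0 member windows and 0.0523% of all. The palindromic ecdysone receptor element was in 0 and 0.0262%. With shares this low over all windows, 0 member windows does not set the member peaks apart from other peaks. The G and C content of the member windows had a median of 35.3% (21.4% to 59.7%), against 34.8% over all windows.

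Other genes were taken from lists by role, and 28 of 67 (41.8%) were covered, beside the 33.3% of all protein-coding genes. Leaving out the list of other nuclear receptor genes, 22 of 55 pathway genes (40.0%) were covered. The lists differ in median gene length, from 3118 bp for ecdysteroid synthesis and turnover to 8638 bp for receptor cofactors. Coverage by list was not matched for length, so the shares of the lists are not compared on equal terms. Genes of ecdysteroid synthesis and turnover were covered least, at 2 of 15 (13.3%). These were ecd, with a strongest peak of 225, and shd, the enzyme that makes the active hormone, with one of 75.3. That of ecd is 85 bp from the TSS of oxt and 3108 bp from an own TSS. The shd peak is 253 bp from the TSS of CG9628 and 2713 bp from an own TSS. Of genes for hormone entry and release signals, 4 of 7 were covered: ETH (ecdysis triggering hormone) with 692, Ptth (prothoracicotropic hormone) with 141, Eh (eclosion hormone) with 71.7 and ETHR with 67.1. The importer gene Oatp74D and the membrane receptor gene DopEcR had none. The peaks of ETH and Ptth are nearer to the TSSs of other genes, 269 bp from that of Reg-5 and 95 bp from that of cold. From an own TSS they are 1803 bp (ETH) and 2137 bp (Ptth) away.

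Receptor cofactors and chaperones were covered at 8 of 11, with the strongest peaks at Smr (265), a corepressor, alien (233), Hsc70-4 (186) and Hsp83 (177), while Utx and E(bx) had none. Further response genes were covered at 8 of 22 (36.4%). Among these, Hr3 had 540, E23 had 527, Eip63E had 268 and Hr4 had 202, the last with 10 peaks, and Kr-h1 and Blimp-1 had none. The other nuclear receptor genes were covered at 6 of 12, led by ERR (273), Hr96 (252), Hr51 (111) and Hnf4 (106), with none at Hr83 and tll. Several of these peaks are closer to the TSS of another gene than to an own TSS. The ERR peak is 19 bp from that of Atg18a and 205 bp from an own TSS. For Hr96 the distances are 83 bp (EMC6) and 135 bp (own), and for alien 92 bp (CG18661) and 134 bp (own). The peaks of ERR, Hr96 and alien are thus within 500 bp of an own TSS too. That of Hr51 is 779 bp from the TSS of unc-5 and 8368 bp from an own TSS. The Hr3 peak lies in an intron that CG46321 and CG12912 also hold. The strongest peaks at Hr3 and E23, a receptor gene and a transporter gene of the response, were thus higher in signal than any at the 10 genes themselves.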

How the data were processed

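The authors deposited 8 peak lists in dm6, per the labels: a thresholded and a ranked list for each of 2 replicates, and for the series a thresholded, a conservative and 2 ranked lists. The aligner, the peak caller, filters and versions were not given in the sources used here. Thresholded lists also derive from 1 further file of unstated role. Each entry carries the authors' deposited signal, which ranked peaks within a list, a −log10 q from the authors, here given as q, and a deposited score that reflects the irreproducible discovery rate (IDR) and served only for a stricter limit. The lists hold no read counts, so the depth of each sample is unknown and signals are given without an interval. That number of replicates limits precision, and they are called biological in the labels.

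Signals of a replicate are those of the strongest overlapping entry (1 bp or more) in its own ranked list. A further 8 signal columns of the ranked lists, for which no sample is named, were not used. Summits were set against Ensembl release 115 genes and the RefSeq genome of release 6, whose arm lengths hold all peak ends. Of the listed symbols, 2 (phm and DOR) were not matched unambiguously and were left out. Scripts used Python 3.11.15, numpy 2.4.6, pandas 2.3.3 and matplotlib 3.10.9 and were tested on simulated data. With 1 group no test was made. The 10 genes and the lists were chosen with earlier results of these data known. Named genes are the 10, from each other list at most 4 covered genes, by strongest peak, and at most 2 uncovered ones, and the genes nearest to a described peak. Alternatives were the gene and TSS windows, stricter lists and each replicate alone.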

Additional observations from a re-analysis of the deposited data

How the results depend on the processing

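The count of covered genes stayed within 1.5 times of 8 under all alternatives but a global IDR of at most 0.0001. That limit left 3 genes (EcR, br and Eip75B), with 3 peaks and 1 TSS with a peak, at 1 gene. No share of all protein-coding genes was taken at that IDR, so these drops have no background beside them. Leaving out a replicate, by taking the list of the other alone, gave 7 to 15 peaks at the 10 genes beside 18, 1 to 2 TSSs with a peak beside 3, and 1 to 2 genes with a peak at an own TSS beside 2. A window of 1000 bp gave 5 TSSs, adding usp-RB and that of Hr38. For the 67 other pathway and nuclear receptor genes, counting inside the gene only gave 16 and the stricter IDR 18, beside 28. Of all protein-coding genes, 10.6% had a summit inside the gene, with no match for gene length. Of 53 recomputed summary counts 43 were within 1.5 times of the reported one and 10 moved, and of 110 per-gene counts 85 were within and 25 moved. No paired analysis was possible because there is 1 group. Depth is unknown, so a peak missing from the list of replicate 2 is not shown to be absent from it.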
